A study of Homo sapiens with 12 samples.

Results

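The clustered histone genes are the protein-coding genes for H1, H2A, H2B, H3 and H4 that lie in the HIST1 to HIST4 clusters. They were taken as all rows of the gene count table with a protein-coding biotype and a gene name beginning HIST1H, HIST2H, HIST3H or HIST4H. This gave 71 genes of 58735 in all: 6 for H1, 17 for H2A, 18 for H2B, 15 for H3 and 15 for H4. On the hg38 build, 55 lie in the HIST1 cluster on chromosome 6, 12 in HIST2 and 3 in HIST3 on chromosome 1, and 1 (HIST4H4) on chromosome 12.

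The RNA came from LX-2, an immortalised line of human hepatic stellate cells whose genotype is labelled WT, in 4 groups of 3 libraries labelled as biological replicates. SiNAT10_TGFB cells were transfected by lipofection with siRNA to NAT10 and, 48 h later, given TGF-β1 at 5 ng/ml for 24 h. SiNAT10 cells received the siRNA alone, TGFB cells received the same TGF-β1 treatment alone, and con cells were untreated. The product of NAT10 acetylates cytidines in RNA and resides mainly in the nucleolus, and TGF-β1 is the cytokine that drives stellate cells towards matrix-producing myofibroblasts. No group is labelled as given a control siRNA, so the siRNA groups differ from the others by transfection as well as by the NAT10 siRNA, and these cannot be told apart. The time from transfection to harvest of the SiNAT10 cells is not stated. All 4 groups are cultures of 1 cell line, and the labels do not say whether the replicates were separate cultures. The p-values then measure only the spread between these libraries.

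Total counts were 25877008 to 35132582 per library, and the 71 genes together had 4720 to 8095 of them. NAT10 stood at 15.8 to 20.7 CPM (counts scaled to library size with TMM factors) in the 6 siRNA libraries, against 62.9 to 69.9 CPM in the other 6. The stellate cell and fibroblast markers COL1A1, VIM and TIMP1 were abundant, while the quiescent stellate cell gene LRAT was at 0. DES and HGF were at most 0.232 and 0.214 CPM in any library, and ACTA2 stood at 2.73 to 5.63 CPM. COL3A1, PDGFRB and RELN ranged over 7.82 to 204, 6.32 to 83.9 and 0.236 to 13.6 CPM. The hepatocyte markers ALB, TTR and HNF4A, the leukocyte marker PTPRC and the epithelial markers EPCAM and KRT19 were at most 0.261 CPM. From the hepatocyte, macrophage, epithelial and endothelial lists, APOA1, CD68, CDH1 and CDH5 reached 0.343, 0.286, 0.486 and 0.875 CPM. SERPINA1, from the hepatocyte list, stood at 13.7 to 28.4 CPM, the macrophage markers CD14 and CSF1R at 1.06 to 4.84 and 0.961 to 6.48 CPM, and the endothelial markers PECAM1 and VWF reached 1.25 and 1.08 CPM. A CPM is a share of a library, so fewer histone-expressing cells and less histone RNA per cell cannot be told apart in these bulk samples.

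Core histones H2A, H2B, H3 and H4 form the protein spool of the nucleosome, and H1 binds the linker DNA between nucleosomes. Their clustered genes are transcribed mainly in S phase, when new DNA must be packaged. Most of their mRNAs end in a conserved stem-loop in place of a poly(A) tail. The stem-loop binding protein SLBP holds this element during 3′ end cleavage, translation and decay, although several clustered genes can also give polyadenylated transcripts in cells that have left the cycle.

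The stem-loop is shown first because it is far more frequent in these genes than among protein-coding genes at large. The pattern searched in the GENCODE 29 transcripts, on the transcribed strand, was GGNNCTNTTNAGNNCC. The pattern was held by 31 of the 71 genes (43.7%) and by 134 of 19922 protein-coding genes (0.673%, members included). It was searched anywhere in a transcript, and most of the 134 lie outside the set. The models of 33 of the 71 stop at the coding sequence and so cannot show it. Lower case marks the stem and capitals mark the 4-base loop in the variants found, written as DNA.
17 genes, among them HIST2H2BE, HIST1H2BG, HIST1H2BN, HIST1H3H and HIST1H2AC: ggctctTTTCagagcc
5 H4 genes, HIST1H4B, HIST1H4E, HIST1H4H, HIST1H4J and HIST4H4: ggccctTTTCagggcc
HIST1H2BC, HIST1H2BD, HIST1H2BF, HIST1H3G and HIST3H3: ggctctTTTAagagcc
HIST1H4I, HIST2H4A and HIST2H4B: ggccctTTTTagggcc
HIST1H2AG: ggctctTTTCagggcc
In 20 of the 31 genes the annotated transcript runs on for more than 300 bases past the stem-loop. A poly(A) signal, AATAAA or ATTAAA, was found in the last 50 bases of a transcript for 23 of the 71 genes (32.4%), against 84.2% of protein-coding genes.

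The promoters are shown because many H2A and H2B genes stand back to back around one upstream region. RefSeq (GRCh38.p14) gave a promoter for 66 of the 71 genes, each from 250 bases before the start site to 50 after it. The 3 motifs searched on both strands were the octamer ATTTGCAT, CCAAT and TATAAA. Matches of different motifs, or of one motif on both strands, may overlap. The octamer was held by 68.8% of the H2A promoters, 77.8% of the H2B promoters and 1.77% of all 35116 RefSeq promoters, with 7.69% for H3 and none for H1 or H4. CCAAT was held by 84.8% of the 66 promoters against 34.6% of all, and TATAAA by 66.7% against 11.5%. The 250 bases before the start sites of the genes on the plus strand are printed for a pair of H2A and H2B neighbours on chromosomes 6 and 1, then for an H3 and an H1 gene. Capitals mark the motifs on either strand.
HIST1H2AG (HIST1H2BJ runs the other way), chr6:27132793-27133042, plus strand: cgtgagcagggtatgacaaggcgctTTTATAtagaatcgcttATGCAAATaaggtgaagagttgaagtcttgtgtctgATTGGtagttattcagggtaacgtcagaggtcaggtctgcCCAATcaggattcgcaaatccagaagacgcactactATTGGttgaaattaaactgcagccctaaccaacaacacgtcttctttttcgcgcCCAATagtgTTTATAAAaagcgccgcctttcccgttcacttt
HIST2H2AC (HIST2H2BE runs the other way), chr1:149886668-149886917, plus strand: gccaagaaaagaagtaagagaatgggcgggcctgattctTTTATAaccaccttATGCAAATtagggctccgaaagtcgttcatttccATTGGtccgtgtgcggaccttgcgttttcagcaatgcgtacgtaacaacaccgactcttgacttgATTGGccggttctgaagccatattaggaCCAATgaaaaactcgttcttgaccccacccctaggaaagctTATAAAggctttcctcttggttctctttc
HIST1H3H, chr6:27809801-27810050, plus strand: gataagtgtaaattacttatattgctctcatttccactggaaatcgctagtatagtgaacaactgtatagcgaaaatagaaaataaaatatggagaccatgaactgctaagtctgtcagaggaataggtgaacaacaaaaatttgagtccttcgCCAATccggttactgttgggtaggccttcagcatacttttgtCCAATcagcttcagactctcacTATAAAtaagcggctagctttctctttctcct
HIST1H1E, chr6:26156079-26156328, plus strand: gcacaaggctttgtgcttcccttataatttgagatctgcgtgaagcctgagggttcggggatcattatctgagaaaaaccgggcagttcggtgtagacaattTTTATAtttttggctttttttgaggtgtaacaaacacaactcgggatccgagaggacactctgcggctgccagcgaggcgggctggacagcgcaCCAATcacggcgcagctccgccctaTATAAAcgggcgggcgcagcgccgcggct
Each pair region holds 1 octamer, on the side of the H2B gene, and a TATAAA at either end.

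Taken as a sum, clustered histone RNA was higher in both siRNA groups and lower by a small margin with TGF-β1 alone. The 71 genes summed to 289 ± 8.07 CPM in SiNAT10_TGFB, 281 ± 3.93 CPM in SiNAT10, 155 ± 3.48 CPM in TGFB and 170 ± 5.11 CPM in con (SD, n = 3 each). The ratio was 1.86 for SiNAT10_TGFB over TGFB, 1.65 for SiNAT10 over con, 1.03 for SiNAT10_TGFB over SiNAT10 and 0.912 for TGFB over con. The siRNA groups did not overlap the others in the total or in any of the 5 types. These sums are descriptions without a test.

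Among the types, H3 and H4 had the highest siRNA ratios and H1 the lowest. H3 RNA summed to 17.3 ± 0.392 CPM in SiNAT10_TGFB, 16 ± 1.5 CPM in SiNAT10, 6.92 ± 0.815 CPM in TGFB and 7.62 ± 1.06 CPM in con. The H4 sums were 39.5 ± 1.66 CPM in SiNAT10_TGFB, 38.2 ± 1.68 CPM in SiNAT10, 18.5 ± 0.842 CPM in TGFB and 19.5 ± 1.49 CPM in con. H2B, the most abundant type, made up 52.5% of the summed histone level in SiNAT10_TGFB, 51.1% in SiNAT10, 49.6% in TGFB and 48.2% in con. Its ratio was 1.97 over TGFB and 1.75 over con. H2A had ratios of 1.58 over TGFB and 1.37 over con, and H1 had 1.43 over TGFB and 1.34 over con.

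A few genes carried most of each sum. HIST1H1C gave 92.0% of H1 counts, HIST1H2AC 49.9% of H2A, HIST1H2BK 41.8% of H2B, HIST1H3H 46.5% of H3 and HIST1H4I 40.6% of H4. Without HIST1H1C, the other 5 H1 genes had ratios of 6.0 for SiNAT10_TGFB over TGFB and 6.65 for SiNAT10 over con. These 2 ratios rest on few reads and mostly on HIST1H1E, the highest of the 5. It had 7 to 16 counts per TGFB library and 8 to 13 per con library. Without HIST1H2AC, the H2A ratios were 2.18 over TGFB and 1.90 over con. Without HIST1H3H, the H3 ratio was 2.12 over TGFB but 1.30 over con. The remaining H2B genes had 2.17 over TGFB and 2.09 over con without HIST1H2BK, and the remaining H4 genes 1.83 and 1.86 without HIST1H4I. The order of the types therefore differs with and without their leading genes.

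**Figure D1:**
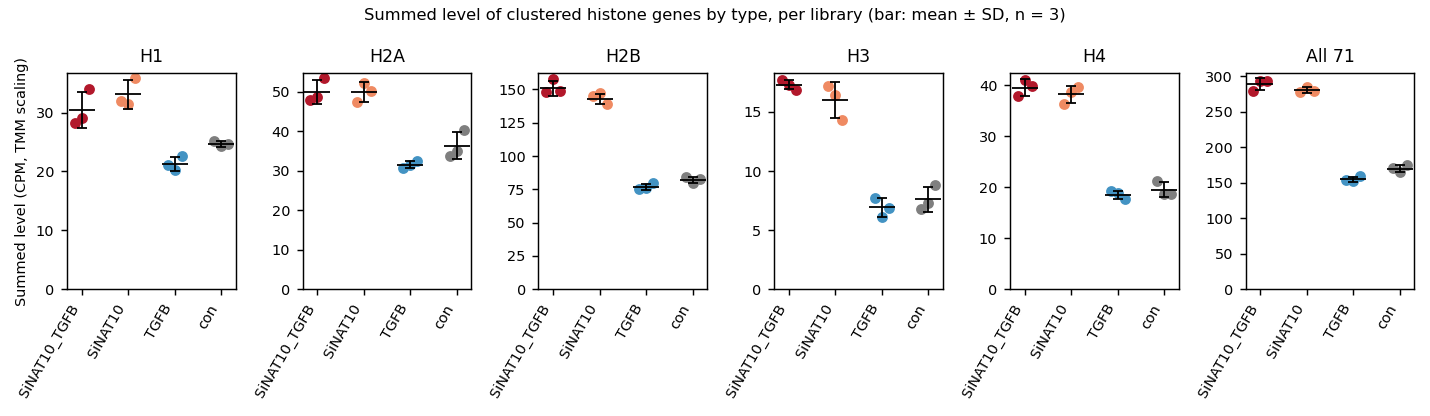
Summed level of the clustered histone genes of each type in each library (CPM with TMM scaling, linear axes from 0), by group, with the mean and SD of 3 libraries. In every panel the SiNAT10_TGFB and SiNAT10 libraries lie above all TGFB and con libraries, for all 71 genes at 289 and 281 CPM against 155 and 170 CPM.

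Where a pair of log2 fold changes is given for a gene, the first is SiNAT10_TGFB against TGFB and the second SiNAT10 against con. Single genes were tested in 1 fit over the whole table with edgeR's quasi-likelihood test, and a gene was called at a Benjamini-Hochberg adjusted p under 0.05. Of the 71 genes, 47 had enough counts to be tested. The other 24 had at most 85 counts over the 12 libraries, and 6 of them (HIST1H2AA, HIST1H2AD, HIST1H2AK, HIST1H2BA, HIST1H3D and HIST2H3PS2) had 0 everywhere. Another gene's exons cover over 50% of the exon bases of 5 members, and 16 members share over 50% of their 50-base stretches with another gene, so their counts are uncertain. Among these are HIST2H2AA3 and HIST2H2AA4, HIST2H3A and HIST2H3C, HIST2H4A and HIST2H4B, HIST1H4J and HIST1H4K, and HIST1H2BK, which shares 74.1% of its stretches, mainly with H2BFS. The 5 members covered by another gene's exons are HIST1H2AD, HIST1H2AK, HIST1H2AM, HIST1H3D and HIST2H3PS2. All of them except HIST1H2AM had 0 everywhere, and how reads on shared bases were counted is not stated. Their 0 therefore does not show that these genes were not expressed. Only 25 of the 47 reached 10 counts in all libraries of all 4 groups, and some entered through the siRNA groups where they were high. Counts are first given over the 19 genes whose mean over all libraries was at least 50. This mean includes the siRNA libraries, and 3 of the 19 (HIST1H4E, HIST1H2BN and HIST2H2BF, all higher after siRNA) averaged under 50 over the con and TGFB libraries, so the counts are also given over the 16 genes that reached 50 there.

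After siRNA without TGF-β1, 15 of these 19 genes rose and 1 fell (SiNAT10 against con). Over all genes with that mean, 31.0% were called higher and 33.3% lower. The median log2 fold change was 0.80 for the 19 and −0.01 for all such genes. All 3 SiNAT10 libraries stood above all 3 con libraries for 15 of the 19, against 32.3% of all such genes. Over the 16 genes the calls were 12 higher and 1 lower, with a median of 0.71, where 29.7% of all genes with that mean in con and TGFB were called higher and 34.1% lower. Over the 47 tested members the calls were 28 higher and 1 lower, where 26.4% of all genes tested were called higher and 26.4% lower.

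With TGF-β1 present, 14 of the 19 rose and none fell (SiNAT10_TGFB against TGFB; 31.7% of such genes were called higher and 33.4% lower). The median log2 fold change was 1.18, against 0.00 for all such genes. No member of the 19 had SiNAT10_TGFB libraries all below the TGFB libraries, and 14 had them all above, against 34.9% of all such genes. Of the 16, 11 rose and none fell, with a median of 0.89 (30.4% of such genes were called higher and 34.3% lower). Of the 47, 26 rose and 1 fell, where 26.3% of all genes tested were called higher and 26.8% lower. With the 19 genes kept, the count of 14 became 13 to 15 under the alternatives, and that of 15 became 14 to 15. These comparisons share no library, but both come from 1 fit with a common estimate of the spread. Of the 47, 22 rose in both, 6 were called higher only without TGF-β1 and 4 only with it, and no gene was called in opposite directions. Some of the 47 entered through the siRNA groups. The share of all genes tested that rose in both was not counted, so how unusual the 22 are is not shown.

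**Figure D2:**
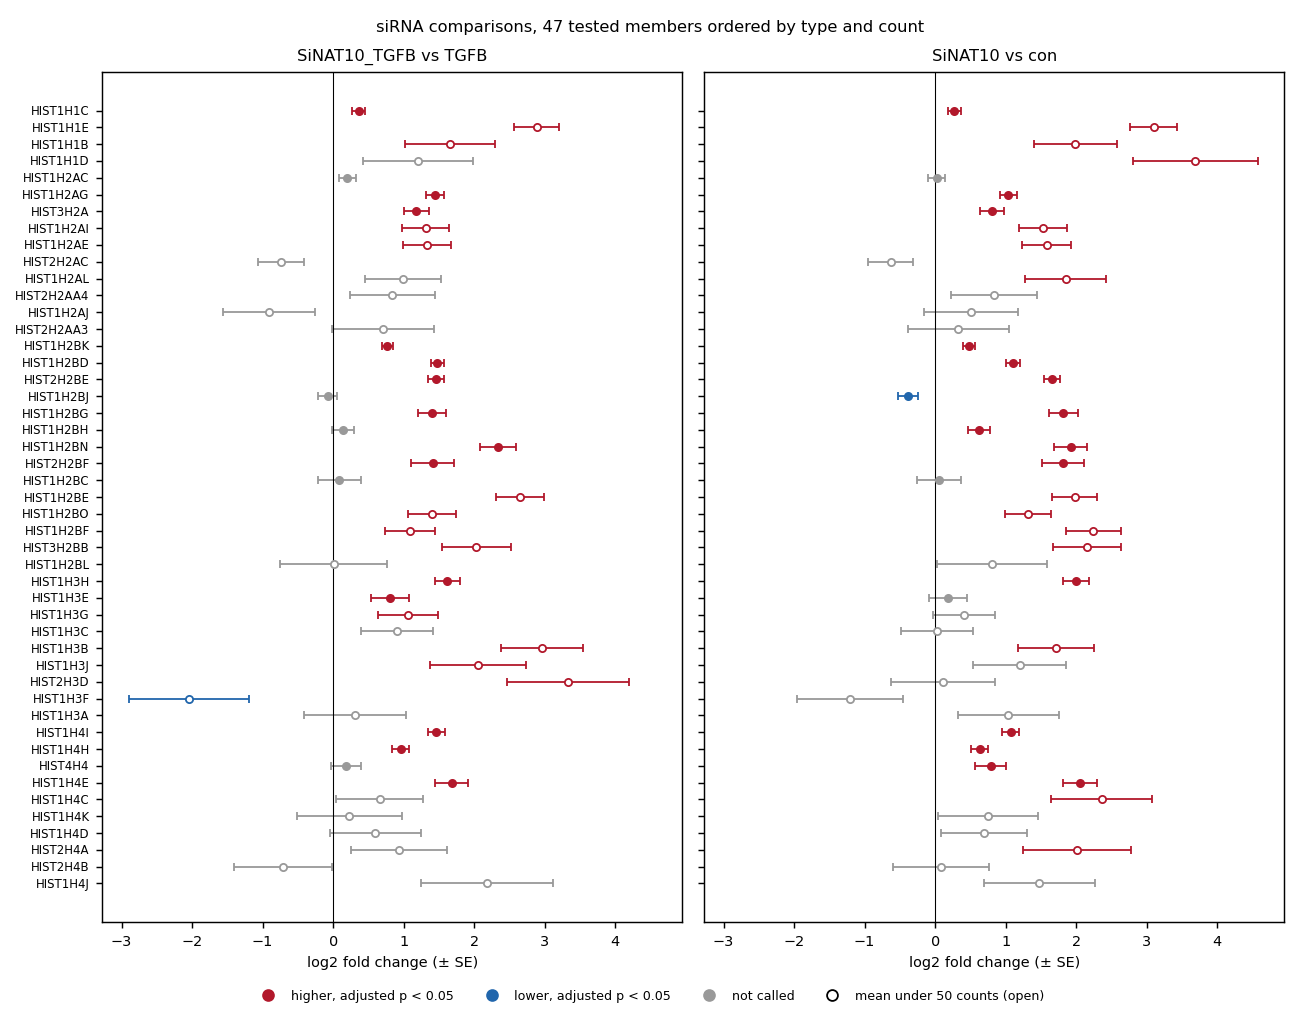
Log2 fold change (± SE) of the 47 tested clustered histone genes for SiNAT10_TGFB against TGFB and for SiNAT10 against con, ordered by type and mean count; filled points have a mean of at least 50 counts and colours mark calls at an adjusted p under 0.05. Of the filled points, 14 of 19 were called higher on the left and 15 of 19 on the right, with HIST1H2BJ the 1 called lower.

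The linker histone genes differed in size of response. HIST1H1C (chr6:26055787-26056428), which encodes H1.2, read 25, 24.9 and 29.6 CPM in SiNAT10_TGFB, 28.5, 26.8 and 32 CPM in SiNAT10, 20.7, 19.6 and 21.7 CPM in TGFB, and 24.3, 23.9 and 24.1 CPM in con. It was higher in SiNAT10_TGFB than in TGFB by a log2 value of 0.36 ± 0.093 (SE, adjusted p = 0.00226) and higher in SiNAT10 than in con by 0.27 ± 0.092 (adjusted p = 0.0168). The second call was lost without SiNAT10 replicate 3, at 0.19, and without con replicate 2, at 0.26. HIST1H1E (H1.4; chr6:26156354-26157107) was a low gene that rose far more, with 2.57, 2.92 and 3.12 CPM in SiNAT10_TGFB, 2.2, 3.11 and 2.76 CPM in SiNAT10, 0.216, 0.497 and 0.439 CPM in TGFB, and 0.378, 0.267 and 0.281 CPM in con. Its log2 fold changes were 2.89 ± 0.32 against TGFB (adjusted p = 6.42e-08) and 3.10 ± 0.33 against con (adjusted p = 3.65e-08), and its siRNA libraries all lay above the others. HIST1H1B (H1.5) read 0.416, 0.461 and 0.471 CPM in SiNAT10_TGFB, 0.755, 0.750 and 0.752 CPM in SiNAT10, 0.0926, 0.0621 and 0.270 CPM in TGFB, and 0.174, 0.0667 and 0.312 CPM in con. It rose by 1.66 ± 0.64 (adjusted p = 0.0334) against TGFB and 1.99 ± 0.59 (adjusted p = 0.00701) against con. A level of 3 counts corresponds to 0.0854 to 0.116 CPM, so its TGFB and con values rest on few reads, and the call against TGFB was lost without TGFB replicate 1 (1.43) or 2 (1.30) and without any single SiNAT10_TGFB replicate (1.62 to 1.71).

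The leading H2A gene did not pass the test, and the next by level rose. HIST1H2AC (chr6:26124145-26139116), known to give polyadenylated transcripts, read 21.7, 17.7 and 23.5 CPM in SiNAT10_TGFB, 19.3, 23.6 and 23.3 CPM in SiNAT10, 16.8, 18.5 and 19.4 CPM in TGFB, and 19.9, 19.8 and 25.5 CPM in con. Its groups overlapped, with log2 fold changes of 0.20 ± 0.12 (adjusted p = 0.17) against TGFB and 0.02 ± 0.12 (adjusted p = 0.895) against con. With scaling by library size alone it was called higher against TGFB, at 0.33 (adjusted p = 0.0238). HIST1H2AG (chr6:27133042-27135291) read 12.6, 13.4 and 13.4 CPM in SiNAT10_TGFB, 12.5, 12.6 and 11.1 CPM in SiNAT10, 4.63, 5.13 and 4.79 CPM in TGFB, and 5.90, 6.57 and 5.18 CPM in con. It rose by 1.44 ± 0.13 (adjusted p = 1.46e-09) and 1.04 ± 0.12 (adjusted p = 2.14e-07), with siRNA libraries apart from all others. HIST3H2A, from the small HIST3 cluster (chr1:228456979-228457873), read 6.77, 8.10 and 9.02 CPM in SiNAT10_TGFB, 7.31, 8.85 and 7.88 CPM in SiNAT10, 4.26, 2.67 and 3.61 CPM in TGFB, and 5.02, 3.77 and 4.97 CPM in con. It rose by 1.18 ± 0.18 (adjusted p = 5.93e-06) and 0.80 ± 0.17 (adjusted p = 0.000438).

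H2B, the type with the most members (18), held the largest number of called genes. Of 14 tested, 10 were higher against TGFB, and 11 were higher and 1 lower against con. Over all genes tested, 26.3% and 26.4% were called higher, and some of the 14 entered through the siRNA groups. Of the 9 H2B genes with a mean of at least 50 counts, 6 rose against TGFB, and 7 rose and 1 fell against con. Over all genes with that mean, 31.7% and 31.0% were called higher. HIST1H2BK (chr6:27146418-27146798) had the highest level of all members both in counts and per length, at a mean of 124 FPKM (fragments per kilobase of gene model, scaled to depth by the authors), on a model that stops at the coding sequence. It read 55.6, 64.4 and 55.8 CPM in SiNAT10_TGFB, 59.1, 57.0 and 51.4 CPM in SiNAT10, 34.2, 32.1 and 36.8 CPM in TGFB, and 38.8, 39.8 and 41.4 CPM in con. Its log2 fold changes were 0.77 ± 0.081 (adjusted p = 2.73e-08) against TGFB and 0.48 ± 0.08 (adjusted p = 2.18e-05) against con. With a trend on transcript GC content removed from each library these were 1.20 and 0.90, and those of HIST1H1C were 0.63 and 0.54. The GC content is 61.15% for HIST1H2BK and 57.48% for HIST1H1C. All 71 members, untested ones included, have a median GC of 57.5%, against 48.5% for all genes tested. Among the members with a mean of at least 50 counts, GC ran from 39.47% (HIST1H2BN) to 61.15% (HIST1H2BK), so the median of all 71 does not describe them. HIST1H2BD (chr6:26158146-26171349), a gene with a spliced second exon, read 28.6, 27 and 31.6 CPM in SiNAT10_TGFB, 23.3, 26.1 and 24.3 CPM in SiNAT10, 11.2, 10.5 and 9.62 CPM in TGFB, and 11.7, 11.6 and 10.7 CPM in con. It rose by 1.48 ± 0.099 (adjusted p = 1.52e-11) and 1.11 ± 0.098 (adjusted p = 1.93e-09). HIST2H2BE (chr1:149884459-149886652), another gene known for polyadenylated transcripts, read 24.6, 26 and 22.2 CPM in SiNAT10_TGFB, 22.9, 22.9 and 23.4 CPM in SiNAT10, 8.92, 9.07 and 8.44 CPM in TGFB, and 8.37, 6.80 and 6.62 CPM in con. It rose by 1.46 ± 0.11 (adjusted p = 6.37e-11) and 1.66 ± 0.11 (adjusted p = 1.07e-11), the smallest p of any member against con.

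Among the less abundant H2B genes, HIST1H2BN, HIST1H2BG and HIST2H2BF rose in both comparisons. HIST1H2BN (chr6:27837760-27865798) read 3.78, 6.14 and 4.89 CPM in SiNAT10_TGFB, 4.63, 5.96 and 4.58 CPM in SiNAT10, 0.988, 1.27 and 0.641 CPM in TGFB, and 1.22, 1.47 and 1.31 CPM in con, a rise of 2.34 ± 0.25 (adjusted p = 3.85e-08) and 1.92 ± 0.24 (adjusted p = 4.27e-07). HIST1H2BG (chr6:26215159-26216692) read 6.97, 8.33 and 7.64 CPM in SiNAT10_TGFB, 5.94, 6.39 and 9.02 CPM in SiNAT10, 2.22, 3.51 and 2.94 CPM in TGFB, and 2.53, 1.77 and 1.72 CPM in con, a rise of 1.40 ± 0.20 (adjusted p = 2.99e-06) and 1.82 ± 0.21 (adjusted p = 1.22e-07). HIST2H2BF, from the HIST2 cluster, read 4.55, 3.11 and 3.40 CPM in SiNAT10_TGFB, 3.47, 4.0 and 4.62 CPM in SiNAT10, 0.864, 1.06 and 2.26 CPM in TGFB, and 1.16, 0.767 and 1.5 CPM in con, a rise of 1.41 ± 0.30 (adjusted p = 0.000343) and 1.81 ± 0.30 (adjusted p = 2.5e-05). For these 3 genes every siRNA library lay above every other. HIST1H2BJ (chr6:27125897-27132750) was the exception among the well-counted genes, at 9.40, 7.79 and 8.98 CPM in SiNAT10_TGFB, 9.74, 8.25 and 8.02 CPM in SiNAT10, 7.75, 9.72 and 10.3 CPM in TGFB, and 12.4, 9.63 and 11.7 CPM in con. It fell by 0.38 ± 0.14 on the log2 scale in SiNAT10 against con (adjusted p = 0.0249), although 1 SiNAT10 library lay above the lowest con library. Against TGFB its value was −0.08 ± 0.14 (adjusted p = 0.647). The call was lost without con replicate 1 (−0.30) or 3 (−0.35), without SiNAT10 replicate 2 (−0.34) or 3 (−0.33), and with scaling by library size alone (−0.32).

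**Figure D3:**
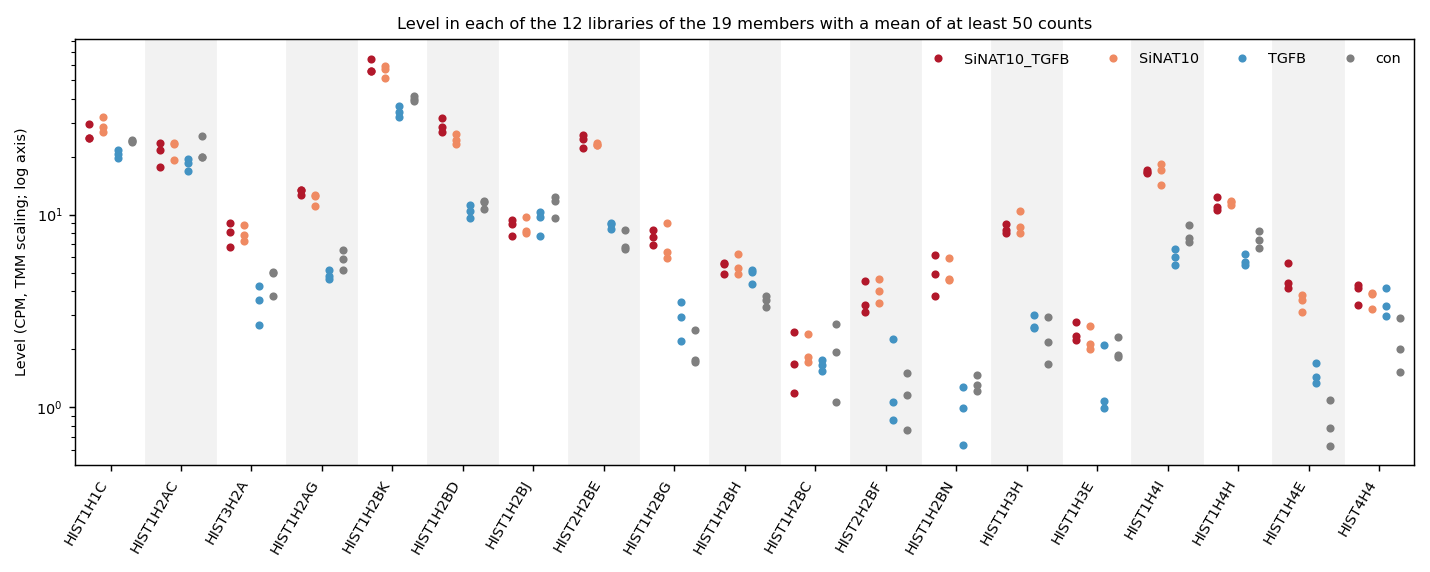
Level of the 19 clustered histone genes with a mean of at least 50 counts in each library (CPM with TMM scaling, log axis), grouped by type and coloured by group. HIST1H2BD, HIST2H2BE, HIST1H3H and HIST1H4I show siRNA libraries far above the rest, while HIST1H2AC, HIST1H2BC and HIST1H2BJ show overlapping groups.

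HIST1H3H carried much of the H3 change. This gene (chr6:27810064-27811300), which encodes H3.1, read 8.33, 8.06 and 8.91 CPM in SiNAT10_TGFB, 10.4, 8.0 and 8.66 CPM in SiNAT10, 2.59, 3.01 and 2.60 CPM in TGFB, and 1.68, 2.17 and 2.94 CPM in con. It rose by 1.62 ± 0.18 (adjusted p = 5.82e-08) and 2.00 ± 0.18 (adjusted p = 2.87e-09). HIST1H3E, also an H3.1 gene, read 2.78, 2.23 and 2.35 CPM in SiNAT10_TGFB, 2.64, 2.14 and 2.00 CPM in SiNAT10, 2.10, 0.994 and 1.08 CPM in TGFB, and 1.86, 1.83 and 2.31 CPM in con. It was called against TGFB, at 0.81 ± 0.27 (adjusted p = 0.0153), and not against con, at 0.18 ± 0.27 (adjusted p = 0.602). The SiNAT10 and con libraries of this gene overlapped, and the call against TGFB was lost without TGFB replicate 2 (0.62) or 3 (0.67) or SiNAT10_TGFB replicate 1 (0.71). HIST1H3B, an H3.1 gene, read 1.67, 1.04 and 1.12 CPM in SiNAT10_TGFB, 0.446, 1.89 and 0.823 CPM in SiNAT10, 0.154, 0.0621 and 0.270 CPM in TGFB, and 0.407, 0.200 and 0.344 CPM in con. Its siRNA libraries were all higher than the others, but those of SiNAT10 differed widely among themselves. It rose by 2.96 ± 0.58 (adjusted p = 0.000164) against TGFB and 1.71 ± 0.54 (adjusted p = 0.01) against con, and without SiNAT10 replicate 2 the comparison with con gave 0.98 and no call. HIST1H3C, another low H3.1 gene, read 0.590, 1.23 and 1.05 CPM in SiNAT10_TGFB, 0.618, 0.500 and 0.859 CPM in SiNAT10, 0.834, 0.124 and 0.574 CPM in TGFB, and 0.523, 0.900 and 0.531 CPM in con. Its groups overlapped and it was not called, at 0.90 ± 0.51 (adjusted p = 0.149) and 0.02 ± 0.51 (adjusted p = 0.975). Against TGFB it was called higher with the GC trend removed (1.29, adjusted p = 0.0332) and without TGFB replicate 1 (1.45, adjusted p = 0.0478), and it ran from 0.43 to 1.45 over the fits that left out 1 library. HIST1H3F was the 1 gene called lower with TGF-β1, at 0.00, 0.230 and 0.0724 CPM in SiNAT10_TGFB, 0.0686, 0.250 and 0.286 CPM in SiNAT10, 0.247, 0.342 and 0.675 CPM in TGFB, and 0.697, 0.167 and 0.531 CPM in con. Its log2 fold change against TGFB was −2.05 ± 0.85 (adjusted p = 0.0461), near the level of 3 counts, and the call was lost with GC correction (−1.63). It was also lost without SiNAT10_TGFB replicate 1 (−1.46) or 3 (−1.87), without TGFB replicate 2 (−2.18) or 3 (−1.54), and without con replicate 1 or 3 or SiNAT10 replicate 2 (−2.05 each). Without SiNAT10_TGFB replicate 2 it was −3.42.

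Most H4 genes encode the same protein, and 3 of the 4 well-counted ones rose in both siRNA comparisons. HIST1H4I (chr6:27138588-27139881) read 16.7, 16.4 and 17.1 CPM in SiNAT10_TGFB, 14.2, 17.1 and 18.3 CPM in SiNAT10, 6.67, 5.50 and 6.04 CPM in TGFB, and 8.80, 7.23 and 7.53 CPM in con. It rose by 1.46 ± 0.12 (adjusted p = 8.88e-10) against TGFB and 1.07 ± 0.12 (adjusted p = 1.08e-07) against con. HIST1H4H (chr6:26277609-26285638) read 10.6, 12.3 and 11 CPM in SiNAT10_TGFB, 11.6, 11.2 and 11.7 CPM in SiNAT10, 5.68, 6.24 and 5.47 CPM in TGFB, and 8.25, 6.70 and 7.37 CPM in con, a rise of 0.96 ± 0.12 (adjusted p = 6.32e-07) and 0.63 ± 0.12 (adjusted p = 0.000136). All siRNA libraries of both genes stood above all others. HIST1H4E (chr6:26204552-26206038) read 4.41, 5.64 and 4.17 CPM in SiNAT10_TGFB, 3.81, 3.61 and 3.11 CPM in SiNAT10, 1.33, 1.43 and 1.69 CPM in TGFB, and 0.784, 0.633 and 1.09 CPM in con. It rose by 1.68 ± 0.23 (adjusted p = 1.32e-06) and 2.06 ± 0.24 (adjusted p = 1.94e-07). HIST4H4 (chr12:14767999-14771131), alone in its cluster, read 3.40, 4.18 and 4.31 CPM in SiNAT10_TGFB, 3.88, 3.25 and 3.94 CPM in SiNAT10, 3.37, 4.16 and 2.97 CPM in TGFB, and 2.00, 2.90 and 1.53 CPM in con. It was called against con (0.79 ± 0.22, adjusted p = 0.00492) but not against TGFB (0.18 ± 0.21, adjusted p = 0.512), and the difference between these effects did not pass its own test (−0.61 ± 0.31, adjusted p = 0.353).

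With TGF-β1 alone, 3 of the 19 well-counted genes were called higher and 2 lower, where 14.7% of such genes were called higher and 16% lower, and no other tested member was called (11.9% higher and 12.2% lower over all genes tested). At an unadjusted p under 0.05 there were 13 of the 19, and 16 of the 47. The share of all genes at that unadjusted p was not counted, so how unusual these numbers are is not shown. The shares above are at an adjusted p and cannot be set beside them. HIST1H4E rose by 0.82 ± 0.26 (adjusted p = 0.0221), HIST4H4 by 0.71 ± 0.22 (adjusted p = 0.0211) and HIST1H2BH by 0.44 ± 0.16 (adjusted p = 0.0468). HIST1H4I fell by 0.37 ± 0.13 (adjusted p = 0.0356) and HIST1H4H fell by 0.36 ± 0.13 (adjusted p = 0.0385). The 4 H4 genes did not share a direction, and each call was lost when single libraries were left out. HIST1H4E was not called without con replicate 1 (0.77) or 2 (0.66) or TGFB replicate 3 (0.70), and HIST4H4 without con replicate 1 (0.67) or 3 (0.52) or TGFB replicate 2 (0.56). HIST1H2BH lost its call without any single con replicate (0.39 to 0.49), TGFB replicate 2 (0.40) or 3 (0.39), or SiNAT10_TGFB replicate 2 (0.44) or 3 (0.43). HIST1H4I lost it without con replicate 1 (−0.28) or 3 (−0.40) or TGFB replicate 2 (−0.31) or 3 (−0.38). HIST1H4H lost it without con replicate 1 (−0.28) or 3 (−0.37), TGFB replicate 1 (−0.35) or 3 (−0.33), or SiNAT10 replicate 2 (−0.36). HIST1H2BK, the most abundant member, had −0.22 (adjusted p = 0.0529), and was called lower with DESeq2 (−0.22), without the count filter (−0.23), with the GC trend removed (−0.27) and with library size alone (−0.35). It was also called lower without TGFB replicate 3 (−0.28), SiNAT10 replicate 1 or 3, or SiNAT10_TGFB replicate 2 (−0.22 each). HIST1H1C was called lower with the GC trend removed (−0.27) and with library size alone (−0.36). Without con replicate 1, HIST1H2BG (0.73) and HIST2H2BE (0.39) were called higher. Without TGFB replicate 1, HIST1H2BG was called higher (0.68) and HIST1H3E lower (−0.95). The H2B gene HIST1H2BH read 4.93, 5.53 and 5.61 CPM in SiNAT10_TGFB, 4.94, 6.25 and 5.30 CPM in SiNAT10, 4.35, 5.06 and 5.13 CPM in TGFB, and 3.60, 3.8 and 3.31 CPM in con. It rose after siRNA against con (0.62 ± 0.16, adjusted p = 0.00217) and was not called against TGFB (0.14 ± 0.16, adjusted p = 0.466). With library size alone as the scaling, the count of lower calls was 8, while the median over all genes shifted by −0.14 in log2.

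With siRNA present, no tested member was called with TGF-β1 (SiNAT10_TGFB against SiNAT10), where 5.92% of genes tested were called higher and 5.15% lower. The members' log2 fold changes ran from −1.0 to 1.09, so the lack of a call does not show a lack of change. At an unadjusted p under 0.05 there was 1, HIST1H2BD at 0.24 ± 0.094 (adjusted p = 0.109), and DESeq2 called 0. The interaction, the siRNA effect with TGF-β1 minus that without, also gave 0 calls by edgeR and by DESeq2. Over all genes tested, edgeR called 1.94% higher and 1.91% lower. At an unadjusted p under 0.05 there were 7 members. For this and the comparison before it, the share of all genes at that unadjusted p was not counted. With the GC trend removed, 1 member was called, HIST1H2BK at 0.30.

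Neighbouring genes on one upstream region did not always move together. Among members whose RefSeq start sites face away from each other on opposite strands, 193 to 247 bases apart, both genes were tested in 6 pairs, each of an H2A and an H2B gene. Both rose in HIST1H2AE with HIST1H2BG and in HIST3H2A with HIST3H2BB, in both siRNA comparisons. Neither was called in HIST1H2AC with HIST1H2BC, where HIST1H2BC had 0.09 ± 0.31 (adjusted p = 0.834) against TGFB and 0.05 ± 0.31 (adjusted p = 0.902) against con. In HIST1H2AG with HIST1H2BJ, whose start sites are 247 bases apart, HIST1H2AG rose by 1.44 and 1.04 while HIST1H2BJ had the values of −0.08 and −0.38 given above. In HIST1H2AI with HIST1H2BL, HIST1H2AI rose by 1.31 ± 0.33 and 1.53 ± 0.34, and HIST1H2BL, a low gene, was not called, at 0.01 ± 0.76 and 0.81 ± 0.78. In HIST2H2AC with HIST2H2BE, 235 bases apart, HIST2H2BE rose by 1.46 and 1.66. HIST2H2AC read 0.729, 0.691 and 0.906 CPM in SiNAT10_TGFB, 1.06, 0.678 and 0.859 CPM in SiNAT10, 1.30, 1.15 and 1.45 CPM in TGFB, and 1.07, 1.40 and 1.56 CPM in con, with log2 values of −0.74 ± 0.32 (adjusted p = 0.058) and −0.63 ± 0.32 (adjusted p = 0.101). All its siRNA libraries lay below its TGFB and con libraries. With the GC trend removed its values were −0.25 (adjusted p = 0.546) and −0.16 (adjusted p = 0.709). Its model holds the coding sequence alone, and 30.5% of its 50-base stretches occur in other genes. The pairs were looked up after the members' values were known, and the difference within a pair was not tested.

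**Figure D4:**
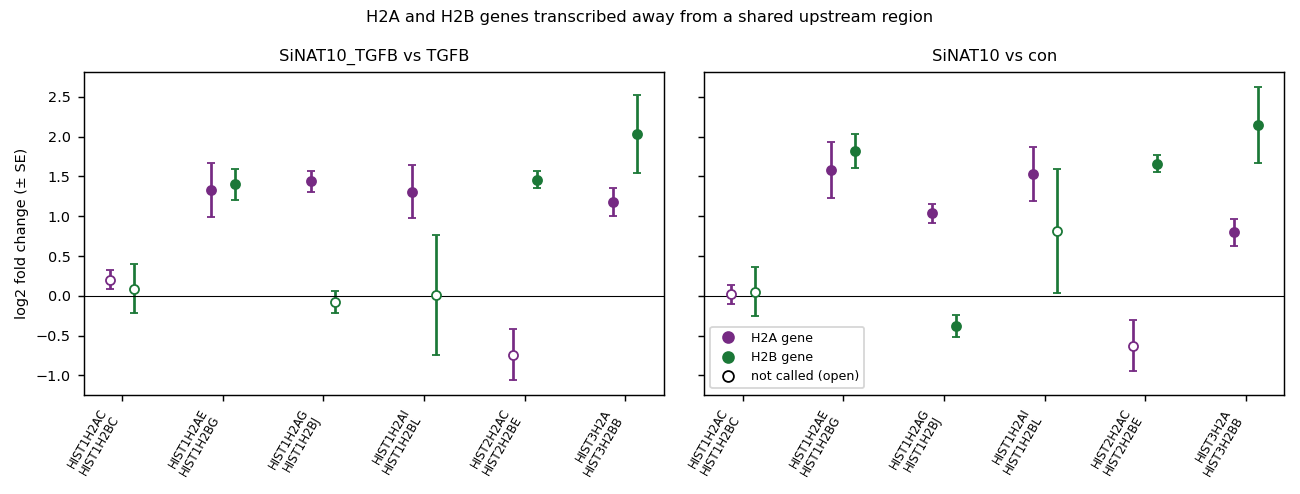
Log2 fold change (± SE) of the H2A and the H2B gene of each of the 6 divergent pairs in which both were tested, for SiNAT10_TGFB against TGFB and for SiNAT10 against con; open points were not called. HIST1H2AG at 1.44 and 1.04 stands apart from HIST1H2BJ at −0.08 and −0.38, and HIST2H2BE was called in both while HIST2H2AC, whose values moved to −0.25 and −0.16 with the GC trend removed, was not.

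Calls were found in genes with and without the annotated features. Of 21 members with a gene model over 1000 bases 19 were tested, and 14 rose against TGFB and 15 against con, where 26.3% and 26.4% of all genes tested were called higher. Of the 50 shorter ones 28 were tested, with 12 higher and 1 lower against TGFB and 13 higher and 1 lower against con. With a poly(A) signal, 12 of 21 tested rose against TGFB, and 12 rose and 1 fell against con. Without one, 14 of 26 rose and 1 fell against TGFB, and 16 rose against con. With the octamer in the promoter, 9 of 16 tested rose against TGFB, and 11 rose and 1 fell against con. Without it, 16 of 29 rose and 1 fell against TGFB, and 16 rose against con. Some tested members entered through the siRNA groups where they were high, so the filter favours higher calls on both sides of each split. The splits were not made over the well-counted genes alone. Short genes collect fewer counts, so these shares differ in depth as well as in feature.

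Genes that act on or around the clustered histone genes were read against all genes tested, of which 26.3% were called higher and 26.8% lower against TGFB, and 26.4% each way against con. Of 17 factors that make the 3′ end of histone mRNA, 11 rose and 2 fell in SiNAT10_TGFB against TGFB, and 13 rose and 2 fell in SiNAT10 against con, with median log2 values of 0.25 and 0.28. The 11 became 6 without TGFB replicate 3 or SiNAT10_TGFB replicate 2, and the 13 became 9 to 12 with each library left out. SLBP rose by 0.54 ± 0.067 (adjusted p = 4.29e-07) and 0.45 ± 0.067 (adjusted p = 4.76e-06). ZNF473, a zinc-finger protein of the U7 snRNP step, rose by 0.78 ± 0.073 and 0.82 ± 0.073, and the cleavage stimulation factor gene CSTF2T by 0.77 ± 0.069 and 0.68 ± 0.068. SYMPK, the scaffold symplekin, fell by 0.82 ± 0.072 and 0.67 ± 0.072, and CPSF1 was lower too, at −0.70 ± 0.071 and −0.55 ± 0.071. With the GC trend removed, 8 rose and 4 fell against TGFB, 8 rose and 3 fell against con, and CPSF1 was not called against con (−0.10).

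Genes of histone transcription and the cell cycle went both ways. Of 12, 6 rose and 3 fell against TGFB, and 6 rose and 5 fell against con (7 and 2, and 6 and 3, with the GC trend removed). CDC25A, a phosphatase of S-phase entry, rose by 0.97 ± 0.065 and 0.88 ± 0.065, HINFP, an activator of H4 genes, by 0.48 ± 0.084 and 0.69 ± 0.084, and NPAT, the coactivator of all clustered histone genes, by 0.50 ± 0.082 and 0.30 ± 0.082, the second value not being called with the GC trend removed (0.07). CCNA2, the S and G2 phase cyclin A2, was far lower, at −2.43 ± 0.073 and −2.24 ± 0.072. POU2F1, which encodes the octamer-binding factor OCT1, had −0.02 ± 0.11 (adjusted p = 0.871) against TGFB and fell by 0.32 ± 0.11 (adjusted p = 0.0151) against con. That call was lost without con replicate 2 (−0.27) or SiNAT10 replicate 1 (−0.20).

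Of 36 DNA replication genes, 6 rose and 13 fell against TGFB, and 5 rose and 15 fell against con (7 and 20, and 7 and 21, with the GC trend removed). The higher calls lay below and the lower calls above the shares over all genes tested. Over genes with a mean of at least 50 counts, 31.7% were called higher and 33.4% lower against TGFB. Against con these shares were 31.0% and 33.3%, so the lower calls of the 36 lie nearer to them. GINS1 of the replicative helicase had the smallest p, at −1.58 ± 0.077 and −1.53 ± 0.076, and PCNA, the sliding clamp, had 0.02 ± 0.053 (adjusted p = 0.764) and −0.02 ± 0.053 (adjusted p = 0.781). With the GC trend removed PCNA was called lower in both, at −0.12 and −0.18, and with library size alone it was called higher against TGFB, at 0.15. The median of the replication genes was −0.11 and −0.10, against 1.18 and 0.80 for the 19 histone genes. The choice of the 19 used the siRNA libraries, and over the 16 histone genes chosen on the con and TGFB libraries the medians were 0.89 and 0.71. The part of cell-cycle composition in these values was not tested.

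Decay factors, chaperones and the histone genes outside the clusters gave mixed counts. Of 7 decay factors tested, 4 rose and 2 fell against TGFB and 3 rose and 2 fell against con (4 and 1, and 2 and 1, with the GC trend removed), with the decapping enzyme gene DCP2 up by 0.97 ± 0.071 and 0.89 ± 0.07 while the helicase gene UPF1 was called lower, at −0.15 ± 0.062 and −0.36 ± 0.062. The sign of UPF1 turned with the GC trend removed, at 0.25 and 0.04, and its call against TGFB was lost without TGFB replicate 1 or 3 (−0.14 each) or SiNAT10_TGFB replicate 2 (−0.14) or 3 (−0.12). Of 17 chaperones tested, 2 rose and 5 fell against TGFB and 2 rose and 7 fell against con, against 3 and 8, and 2 and 10, with the GC trend removed. Among them was HJURP, the CENP-A chaperone, at −0.47 ± 0.059 and −0.61 ± 0.058. Of 11 genes for histone variants outside the clusters, whose mRNAs are polyadenylated, 3 rose and 3 fell against TGFB and 4 rose and 4 fell against con, and 5 rose and 4 fell in both with the GC trend removed. CENPA, the centromeric H3 variant, was lower at −0.92 ± 0.10 in both, while H2AFJ rose by 0.50 ± 0.086 and 0.58 ± 0.085 and the linker variant H1F0 by 0.43 ± 0.058 and 0.28 ± 0.058. H3F3B, a replication-independent H3.3 gene, had −0.09 ± 0.055 in both comparisons (adjusted p = 0.186 against TGFB and 0.192 against con), and with the GC trend removed it was called lower, at −0.18 and −0.20.

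**Figure D5:**
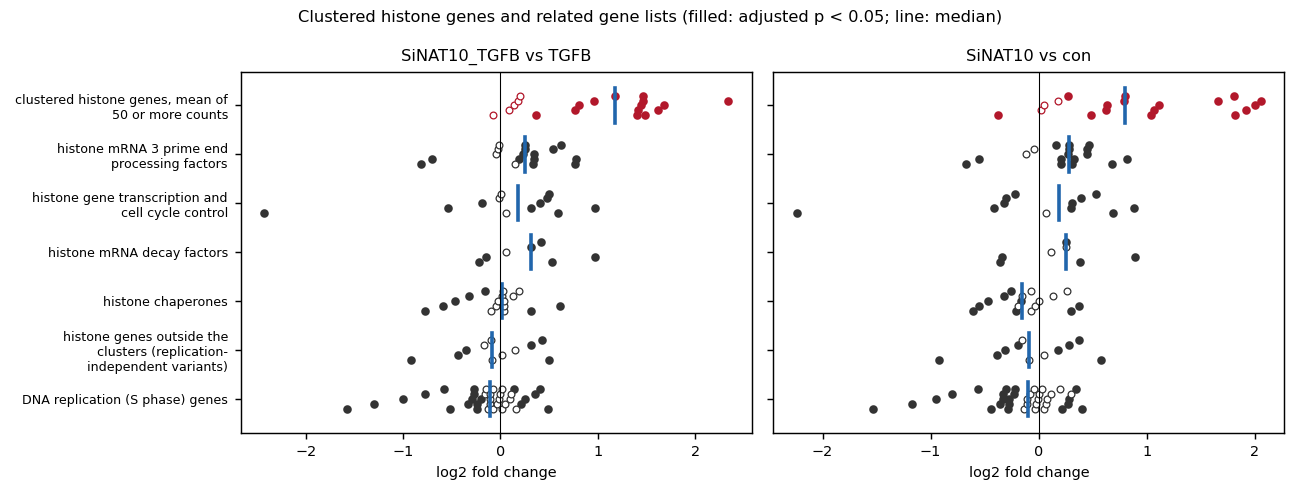
Log2 fold change of the 19 clustered histone genes with a mean of at least 50 counts and of the tested genes of 6 related lists, for SiNAT10_TGFB against TGFB and for SiNAT10 against con; each point is a gene, filled points were called and blue lines are medians. The histone medians of 1.18 and 0.80 lie to the right of those of the lists, which run from −0.11 to 0.31 on the left. Over the 16 histone genes with a mean of 50 counts in the con and TGFB libraries, not drawn here, the medians were 0.89 and 0.71.

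The sources used here do not say whether the libraries were made by poly(A) selection or rRNA removal. Among 16 RNAs known to lack a poly(A) tail, 2 were tested, and 11 to 14 of the 16 had 0 counts in each library. Apart from the signal recognition particle RNA gene RN7SL2, they summed to 0.768 to 1.01 CPM in SiNAT10_TGFB, 0.926 to 1.11 CPM in SiNAT10, 0.338 to 0.715 CPM in TGFB and 0.174 to 0.999 CPM in con. RN7SL2 itself read 317, 232 and 278 CPM in SiNAT10_TGFB, 829, 510 and 251 CPM in SiNAT10, 256, 226 and 725 CPM in TGFB, and 101, 190 and 204 CPM in con. It was called higher in SiNAT10 than in con, at a log2 value of 1.69 (adjusted p = 0.000346), and not called in SiNAT10_TGFB against TGFB, at −0.54. Its TGFB replicates differed more among themselves than the histone sums of any group did. The share of histone transcripts with and without a tail was not measured, and its part in the histone values was not tested.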

How the data were processed

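Gene expression was measured by RNA sequencing in 12 libraries of LX-2 cells, 3 in each of 4 groups taken from the sample titles. The authors deposited counts and FPKM for 58735 genes; per the submitters' processing notes, the tools were fastp and HISAT2 2.2.1 and the build was hg38. The sources used here name no counting tool, strand setting or RNA selection. The FPKM deposited by the authors matched the counts divided by gene length up to 1 factor per library (0.9334 to 1.0879) and were used only to compare levels between genes. Gene lengths and coordinates matched GENCODE 29.

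The deposited counts were tested in R 4.3.3 with edgeR 4.0.16 (filterByExpr, which kept 18560 genes, TMM factors of 0.9217 to 1.069, 1 quasi-likelihood fit with 4 group means, Benjamini-Hochberg over all genes). The SE is the absolute log2 fold change over the square root of F. Sums of CPM carry no test. Counting limits, 3 counts per library, cover counting error only. On counts simulated for the comparison of TGFB with con, the share of altered genes recovered was 4.08% at a log2 change of 0.25, 31.2% at 0.5, 72.7% at 1 and 91.8% at 2, and 3 of 17792 unaltered genes were called. Alternatives were RLE scaling, library size alone, no count filter, DESeq2 1.42.0, the replicate block, a spline on GC content with 5 degrees of freedom, an adjusted p under 0.01, omission of each library and, chosen after seeing the data, a mean of 50 counts over the con and TGFB libraries. Genes named were the 3 with the highest mean FPKM of each type, the 6 called with the smallest p in each comparison and direction, up to 6 with models over 1000 bases, and up to 3 per related list with the smallest p; CPSF1, NPAT, POU2F1, PCNA, H3F3B, H2AFJ, HIST2H2AC, HIST2H2BF, HIST1H3E and HIST1H2BC were added after their values were seen. The members and lists were chosen with earlier results of these data known.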

Additional observations from a re-analysis of the deposited data

How the results depend on the processing

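The counts of members called higher after siRNA kept within 25 to 30 (SiNAT10 against con, 28) and 21 to 28 (SiNAT10_TGFB against TGFB, 26) under every alternative that used all libraries, and within 26 to 28 and 23 to 28 when each library was left out. Over the 19 well-counted genes they were 14 to 15 and 13 to 15. Over the 16 with a mean of 50 counts in the con and TGFB libraries, a choice made after seeing the data, they were 12 and 11. Small counts moved, by the same numbers in both sets. Higher calls for TGFB against con (3) were 1 without the count filter, 0 at an adjusted p under 0.01 and 1 to 4 with each library left out. Lower calls there (2) were 8 with library size alone, 0 with the replicate block, 4 with the GC trend removed with or without the block, 0 at an adjusted p under 0.01 and 0 to 3 with each library left out. The 1 lower call of SiNAT10 against con was 0 with library size alone and at an adjusted p under 0.01, and 0 to 1 with each library left out. The 1 lower call of SiNAT10_TGFB against TGFB, outside the 19, was 0 with library size alone, the replicate block, the GC trend removed with or without the block, and an adjusted p under 0.01, and 0 to 1 with each library left out. Higher calls of the interaction were 1 with the GC trend removed. For these the cause was not tested.

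Library size alone moved the median of all genes by −0.14 (TGFB against con) and 0.13 (SiNAT10_TGFB against TGFB) in log2 and the log2 ratios of summed CPM with them: for TGFB over con to −0.35 (H1), −0.23 (H2B), −0.21 (H4) and −0.27 (all 71); for SiNAT10_TGFB over TGFB to 0.79 (H2A), 1.10 (H2B), 1.22 (H4) and 1.02 (all 71); for all 71 to 0.78 in SiNAT10 over con and −0.02 in SiNAT10_TGFB over SiNAT10. With it, 23.4% of the genes called for TGFB against con were higher, against 49.5% with TMM. No called histone gene changed direction. With the GC trend removed, with or without the block, UPF1 reversed to 0.25 (SiNAT10_TGFB against TGFB) and 0.04 (SiNAT10 against con), and PCNA, at 0.02 in SiNAT10_TGFB against TGFB, to −0.12. Samples of the same number did not deviate together: 18 same-number pairs correlated at −0.073 to 0.048, none over 0.1, and 1 of 12 libraries matched best with its own number. The replicate block gave 28 and 25 higher calls in the siRNA comparisons. Genes under about 50 counts, and siRNA libraries shallower than the others, limit the precision.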
